A study of Glycine max with 46 samples.

Results

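The genes described here encode 6 proteins of the mature soybean seed other than its main storage globulins. They are the Kunitz trypsin inhibitors KTI1 (Glyma01g10900) and KTI3 (Glyma08g45531), the seed lectin Le1 (Glyma02g01590), the P34 thiol protease (Glyma08g12270), a sucrose-binding protein (SBP, Glyma10g03390) and the embryo urease (Glyma05g27840). They were taken by ID from a table of 54175 genes, and 6 of 6 IDs were present and passed the filter on low values. The names came with the gene list, because the table pairs no ID with a name. In the RefSeq gene table of assembly Glycine_max_v4.0, KTI1, KTI3, LE1 and P34 are symbols of genes on chromosomes 1, 8, 2 and 8, and sbp is a synonym of LOC100787186 on chromosome 10. These are the chromosome numbers carried by the IDs, but no urease-named gene was found on chromosome 5, the number in the urease ID, so that name rests on the gene list.

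Total RNA of soybean (Glycine max, cultivar Williams 82, no mutation or transgene named) was sequenced at 7 stages with 3 biological replicates each. The imbibed stages, in order of time, were taken 3 h, 16 h and 27 h after the dry seed was given water. Before them came the dry seed itself and 3 stages of drying on the plant, called here early, mid and late desiccation. The tissue is labelled whole seed while the extraction protocol speaks of embryos. Plants were kept at 22 °C with 16 h of light a day. In such bulk samples, fewer cells of a type and less RNA per cell cannot be told apart.

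A maturing legume seed fills protein storage vacuoles with globulins and, beside them, with smaller amounts of protective and enzymatic proteins. Kunitz inhibitors block trypsin-like proteases, seed lectin binds galactose-type sugars, and both count among the antinutritional factors of raw soybean. P34 belongs to the papain family but lacks the catalytic cysteine and is a major soybean allergen. The sucrose-binding protein has the cupin fold of the vicilin-type storage globulins, and the embryo urease is a nickel enzyme that splits urea. Transcripts of such genes are built up during seed filling. The first stage studied here is labelled early desiccation, and no stage is labelled as seed filling.

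Values are normalized counts, which are reads divided by 1 factor per library. Replicates held 43.82 M to 86.52 M reads, apart from late desiccation replicate 3 with 2.53 M, for which only run 1 was used. In that replicate KTI1 rested on 185 reads, KTI3 on 85, Le1 on 88, P34 on 265, SBP on 365 and urease on 12 reads, the last worth 104 normalized counts with an exact 95% Poisson interval of 53.8 to 182, counting error only. In every other replicate a member had at least 104 reads. A few libraries stood apart. In early desiccation replicate 3, 14.5% of 20111 genes were at least 1.5-fold above both other replicates and 19.2% at least 1.5-fold below both. In late desiccation replicate 3 these shares were 11.7% and 21.5% of 21539 genes. In dry seed, 20482 genes had no read in replicate 1, while 4649 had none in replicate 2 and 4577 in replicate 3. In early desiccation it was 17903 and 19057 genes in replicates 1 and 2, and 1410 in replicate 3. The shallow late desiccation replicate 3 had 22606 such genes, and the other replicates of the series had 1511 to 8584. The sum of normalized counts was 11.1 M to 11.7 M at 27 h and 17.6 M to 20.5 M in dry seed. For 27 h against dry seed, scaling to equal sums shifted the median gene upward by 0.61 on the log2 scale. For the 8 comparisons refitted under that scaling, the members' own values stand beside the results they change. The other stage pairs were not refitted with it.

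A gene was called where limma's adjusted p (Benjamini-Hochberg over 46537 genes) was under 0.05 and the change at least 2-fold on the log2(value + 1) scale. By that rule 6 of 6 members varied across the 7 stages, as did 37.5% of all genes tested. With equal library sums it was 5 of 6, without urease (limma adjusted p = 0.155). Their courses differed from each other. KTI1, Le1 and P34 had their highest stage mean 3 h after imbibition, KTI3 and SBP in mid desiccation, and urease in dry seed. KTI1, P34 and SBP had their lowest mean at 27 h, as did urease, while KTI3 and Le1 had theirs in late desiccation. Stage means ranged 38.3-fold for SBP, 8.42-fold for KTI1, 7.56-fold for P34, 3.51-fold for KTI3, 3.36-fold for Le1 and 2.74-fold for urease.

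**Figure D1:**
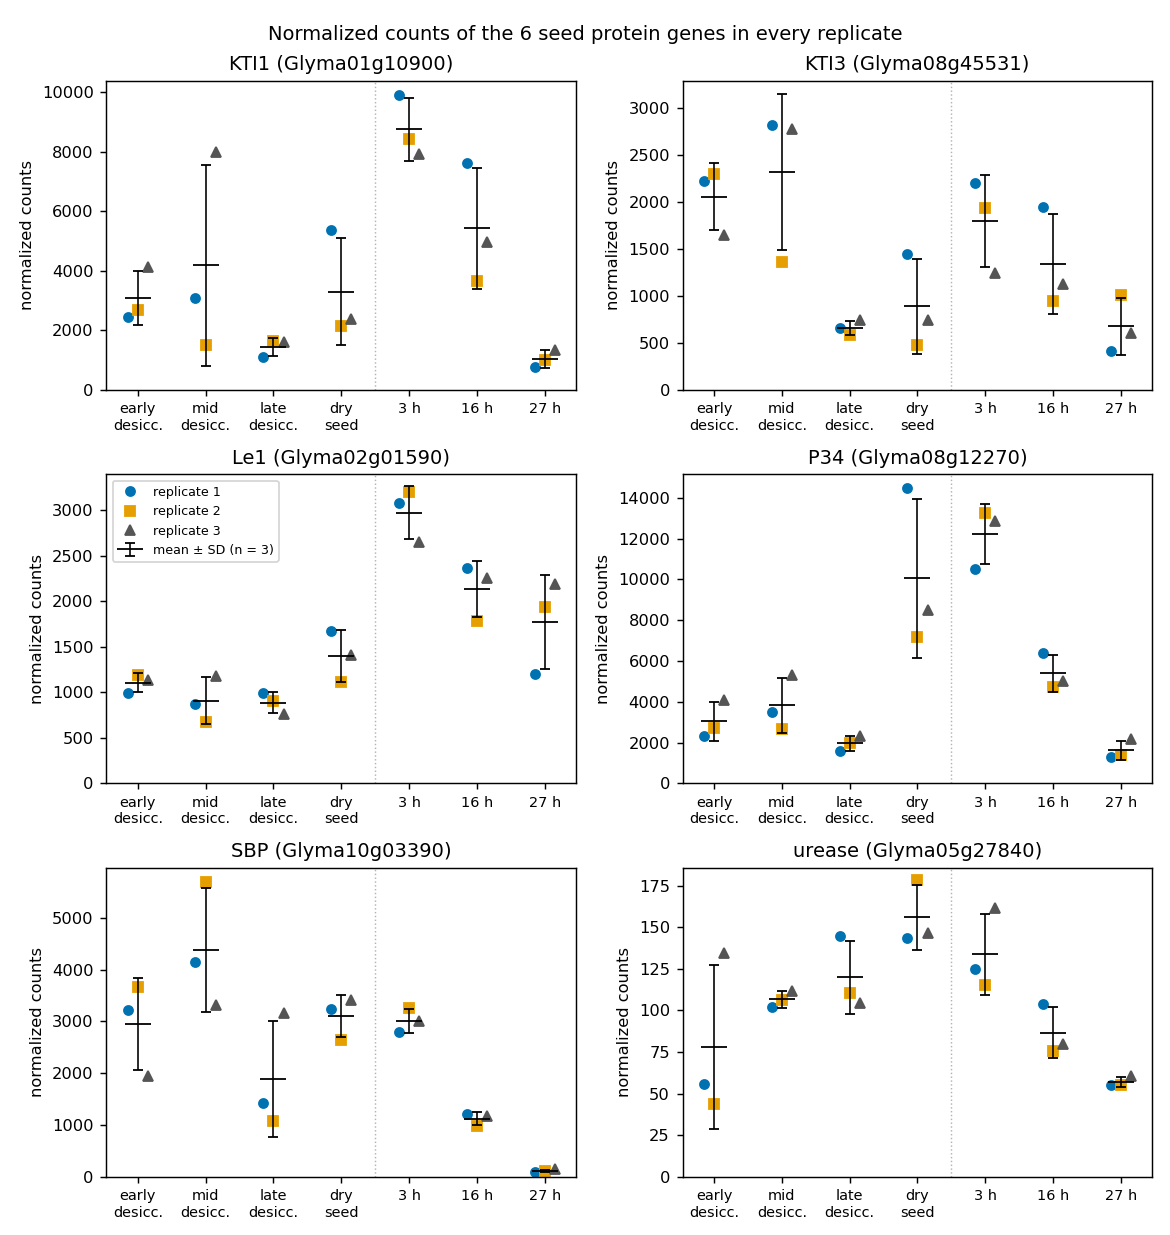
Normalized counts (vertical axes from 0, a scale per panel) of each gene at 7 stages; points are the 3 biological replicates, bars the mean ± SD, and the dotted line marks imbibition. P34 is high in dry seed (7153 to 14485) and at 3 h (10529 to 13249), and SBP falls to 97.9 to 142 at 27 h.

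KTI1 encodes a Kunitz inhibitor. Its normalized counts in replicates 1, 2 and 3 were 2435, 2685 and 4113 in early desiccation, 3073, 1498 and 7982 in mid desiccation, and 1101, 1624 and 1606 in late desiccation. They were 5359.6, 2127 and 2386 in dry seed. After imbibition they were 9916, 8416 and 7908 at 3 h, 7636, 3665 and 4961 at 16 h, and 759, 1008 and 1352 at 27 h. The 3 h values lay above those of every other stage except mid desiccation replicate 3, which reached into their range, and the 27 h values overlapped those of late desiccation.

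KTI1 was called lower at 27 h than at 16 h. From 3 h to 16 h its log2 change was -0.75, with a 95% interval of -1.70 to 0.20. That step was not called, though the replicates did not overlap. Its mean was 1039 ± 298 at 27 h and 5421 ± 2025 at 16 h (SD, n = 3 each), a log2 change of -2.36 ± 0.45 SE (limma adjusted p = 0.000642). Against dry seed, with 3291 ± 1796, the change at 27 h was -1.57 ± 0.45 SE (limma adjusted p = 0.00897). That call rested on dry seed replicate 1, without which the log2 change was -1.16 (limma adjusted p = 0.0687), and it was lost with equal library sums (log2 change -0.87, limma adjusted p = 0.163). At 3 h the mean was 8747 ± 1044, a log2 change from dry seed of 1.53 ± 0.45 SE that missed the threshold (limma adjusted p = 0.0501). It passed in 10 of 31 alternatives, among them TMM scaling (limma adjusted p = 0.0337) and leaving out dry seed replicate 1 (log2 change 1.95, limma adjusted p = 0.0238). In the order of stage means, 3 h was followed by 16 h, mid desiccation, dry seed, early desiccation, late desiccation and 27 h, and 0 of these 6 neighbouring pairs differed by the test.

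KTI3 encodes the main Kunitz trypsin inhibitor of soybean seed. Replicates 1, 2 and 3 had 2223, 2297 and 1641 normalized counts in early desiccation, 2817, 1356 and 2771 in mid desiccation, and 653, 586 and 738 in late desiccation. Dry seed replicates had 1444, 471 and 747. After imbibition the values were 2200.1, 1937 and 1247 at 3 h, 1943, 940.3 and 1129 at 16 h, and 414, 1005 and 604 at 27 h. The late desiccation replicates all lay below those of both earlier stages, and dry seed spanned 471 to 1444.

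KTI3 was lower in the dried seed than at the start of desiccation. It averaged 659 ± 76.3 in late desiccation and 2315 ± 831 in mid desiccation (SD, n = 3 each), a log2 change of -1.74 ± 0.39 SE (limma adjusted p = 0.0353). Leaving out any 1 mid desiccation replicate, late desiccation replicate 1 or 2, or 27 h replicate 3 ended the call, with log2 changes of -2.09 to -1.56 and limma adjusted p of 0.0504 to 0.165, and so did run 1 alone (limma adjusted p = 0.0573) and the compared stages alone (limma adjusted p = 0.225). For late against mid desiccation, the fit of the compared stages alone called 0 of all genes tested. Dry seed averaged 887 ± 502 and early desiccation 2054 ± 359, a log2 change of -1.35 ± 0.39 SE (limma adjusted p = 0.0228). That call ended without early desiccation replicate 1 or 2 or dry seed replicate 2 or 3, with log2 changes of -1.30 to -0.97 and limma adjusted p of 0.0693 to 0.137. It also ended with TMM scaling (limma adjusted p = 0.0852), with edgeR (adjusted p = 0.124) and with the compared stages alone (limma adjusted p = 0.0812).

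After imbibition KTI3 averaged 1795 ± 492 at 3 h, a log2 change from dry seed of 1.13 ± 0.39 SE that was not called (limma adjusted p = 0.0971). Without dry seed replicate 1 it was 1.56 (limma adjusted p = 0.0239). At 27 h it averaged 674 ± 302, and the log2 change from dry seed had a 95% interval of -1.15 to 0.47. The change from 16 h, with 1338 ± 533, was -1.01 ± 0.39 SE (limma adjusted p = 0.0710). It was called without dry seed replicate 1 or 2 (limma adjusted p = 0.0371 and 0.0462) or without 27 h replicate 2 (log2 change -1.35, limma adjusted p = 0.0251). All 6 neighbouring pairs in the order of stage means (mid desiccation, early desiccation, 3 h, 16 h, dry seed, 27 h, late desiccation) had overlapping replicates.

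The inhibitor genes can also be set against each other within a replicate. The ratio of KTI1 to KTI3 normalized counts in replicates 1, 2 and 3 was 1.10, 1.17 and 2.51 in early desiccation, 1.09, 1.10 and 2.88 in mid desiccation, and 1.69, 2.77 and 2.18 in late desiccation. It was 3.71, 4.51 and 3.195 in dry seed. After imbibition it was 4.51, 4.35 and 6.34 at 3 h, 3.93, 3.90 and 4.39 at 16 h, and 1.83, 1.003 and 2.24 at 27 h. The ratio in every dry seed, 3 h and 16 h replicate lay above that in every replicate of the other stages. It was not tested, and its size says nothing of which gene is more active, since read counts depend on transcript length.

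**Figure D2:**
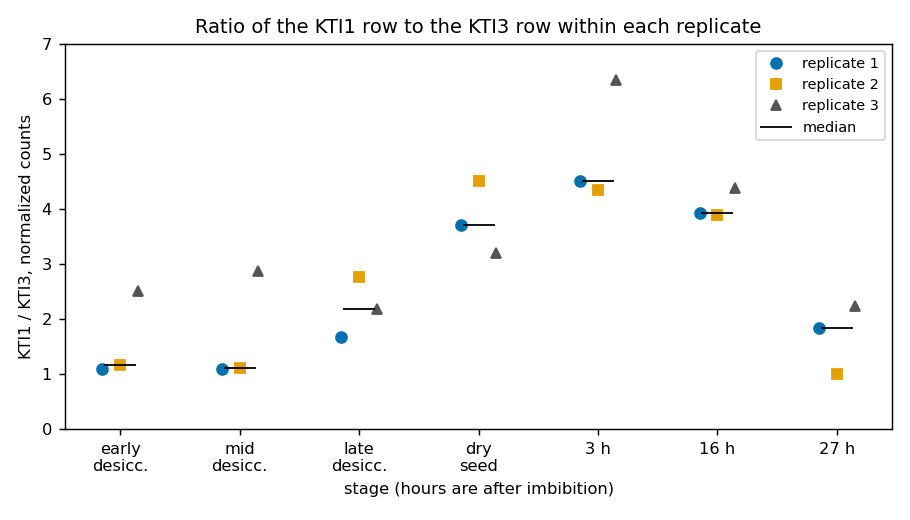
Ratio of KTI1 to KTI3 normalized counts within each replicate (points) at 7 stages, with the stage median as a bar; the ratio has no unit. Dry seed, 3 h and 16 h replicates lie between 3.195 and 6.34, all other replicates between 1.003 and 2.88.

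Le1 encodes the seed lectin, soybean agglutinin. Its normalized counts in replicates 1, 2 and 3 were 992, 1190.0 and 1133 in early desiccation, 866, 669 and 1182 in mid desiccation, 988, 906 and 764 in late desiccation, and 1676, 1108 and 1413 in dry seed. At 3 h they were 3074, 3198 and 2649, at 16 h 2359.7, 1786 and 2258, and at 27 h 1197, 1935 and 2188. The 3 h replicates lay above those of all other stages, and the 16 h replicates above those of all 4 stages before imbibition.

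Le1 was the 1 member called between 3 h and dry seed, where 3.4% of all genes were called. It averaged 2973 ± 288 at 3 h and 1399 ± 284 in dry seed (SD, n = 3 each), a log2 change of 1.10 ± 0.22 SE (limma adjusted p = 0.00394). Without dry seed replicate 2 the change was 0.94 and so under 2-fold (limma adjusted p = 0.0319). Le1 did not pass the test at either later step, with 2135 ± 306 at 16 h and 1773 ± 515 at 27 h. The log2 change of 27 h against dry seed was 0.32, with a 95% interval of -0.14 to 0.78. As a share of all normalized counts, Le1 held 0.00741% ± 0.000984 in dry seed (SD, n = 3). After 3 h of imbibition its share was 0.0160% ± 0.000541, after 16 h 0.0153% ± 0.00158 and after 27 h 0.0154% ± 0.00411 (SD, n = 3 each). With equal library sums Le1 was called higher at 27 h than in dry seed (log2 change 1.02, limma adjusted p = 0.000622). In the order of stage means only 3 h and 16 h, the highest pair, had replicates that did not overlap, and they did not differ by the test (limma adjusted p = 0.188).

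P34 encodes a papain-family protein of the storage vacuole. Replicates 1, 2 and 3 had 2305, 2696 and 4095 normalized counts in early desiccation, 3507, 2650.2 and 5301 in mid desiccation, and 1594, 1968 and 2300.2 in late desiccation. Dry seed replicates had 14485, 7153 and 8514. After imbibition the values were 10529, 13249 and 12888 at 3 h, 6406, 4735 and 5030.2 at 16 h, and 1303, 1381 and 2168 at 27 h. Every dry seed and 3 h replicate lay above every replicate of the other stages.

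P34 rose in the last step of drying and fell from 3 h on. It averaged 10051 ± 3899.9 in dry seed and 1954 ± 353 in late desiccation (SD, n = 3 each), 4.96-fold higher, with a log2 change of 2.31 ± 0.28 SE (limma adjusted p = 3.29e-05). The median gene changed by -0.37 at this step, so P34 stood 2.68 above it. Against early desiccation, with 3032 ± 941, dry seed was 3.26-fold higher (log2 change 1.70 ± 0.28 SE, limma adjusted p = 0.000239). Both calls held in 31 of 31 alternatives, with log2 changes of 2.01 to 2.76 and 1.41 to 2.06. Among these, dropping the fold threshold could not end a call. Leaving out a replicate of a stage outside the comparison could not alter the log2 change. Between 3 h (12222 ± 1477) and dry seed the log2 change was 0.34, with a 95% interval of -0.24 to 0.92.

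At 16 h P34 averaged 5390.1 ± 892, a log2 change from 3 h of -1.19 ± 0.28 SE (limma adjusted p = 0.00607). This step was not called with equal library sums (log2 change -0.77, limma adjusted p = 0.0819). At 27 h it averaged 1617 ± 479, a log2 change of -1.76 ± 0.28 SE from 16 h (limma adjusted p = 5.11e-05) and of -2.61 ± 0.28 SE from dry seed (limma adjusted p = 1.04e-07). Dry seed and 16 h, neighbours in the order of stage means, did not overlap and reached a limma adjusted p of 0.0323, but their change on the log2 scale was under 2-fold. Early and late desiccation were also neighbours without overlap, and did not differ by the test (limma adjusted p = 0.315).

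SBP encodes the sucrose-binding protein. Its normalized counts in replicates 1, 2 and 3 were 3222, 3659.5 and 1952 in early desiccation, 4152, 5681 and 3307 in mid desiccation, and 1415, 1072 and 3168 in late desiccation. They were 3231, 2647 and 3415 in dry seed. After imbibition they were 2785, 3250.3 and 3002 at 3 h, 1211, 977 and 1177 at 16 h, and 97.9, 104 and 142 at 27 h. The 27 h replicates lay below those of all other stages, while the 3 h replicates lay within the range of dry seed.

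SBP fell furthest of the 6 members after imbibition. It averaged 1122 ± 127 at 16 h and 3012 ± 233 at 3 h (SD, n = 3 each), a log2 change of -1.43 ± 0.30 SE (limma adjusted p = 0.00247). At 27 h it averaged 114 ± 23.9, 9.82-fold lower than at 16 h (log2 change -3.30 ± 0.30 SE, limma adjusted p = 3.22e-08). Against dry seed, with 3098 ± 401, it was 27.0-fold lower at 27 h (log2 change -4.76 ± 0.30 SE, limma adjusted p = 3.92e-11). These 3 calls held in 31 of 31 alternatives, with the same limits on the alternatives as given for P34. At 3 h against dry seed the log2 change was -0.03, with a 95% interval of -0.65 to 0.59.

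During drying SBP averaged 1885 ± 1124 in late desiccation and 4380.0 ± 1203 in mid desiccation, a log2 change of -1.34 ± 0.30 SE (limma adjusted p = 0.0333). The call ended without mid desiccation replicate 1 or 2 or late desiccation replicate 1 or 2, with log2 changes of -1.36 to -1.01 and limma adjusted p of 0.0844 to 0.245, and with the compared stages alone (limma adjusted p = 0.373). That last fit called 0 of all genes tested. Late desiccation replicate 3, the shallow library, was at least 1.5-fold above both other replicates of its stage in SBP. Without it dry seed was called higher than late desiccation (log2 change 1.32, limma adjusted p = 0.00169), which with all libraries it was not (0.87 ± 0.30 SE, limma adjusted p = 0.0767). In the order of stage means, only 16 h and 27 h, the lowest pair, differed from each other.

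The embryo urease gene rested on the fewest reads of the 6 members, 104 to 661 in a replicate outside the shallow library. Replicates 1, 2 and 3 had 55.6, 43.7 and 134 in early desiccation, 102, 106 and 112 in mid desiccation, and 145, 110.4 and 104 in late desiccation. Dry seed had 143, 178 and 146. After imbibition the values were 125, 115 and 161 at 3 h, 104, 75.4 and 80.0 at 16 h, and 55.2, 55.02 and 60.4 at 27 h. The 27 h replicates lay below those of all stages except early desiccation, whose replicates 1 and 2 were as low.

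Urease averaged 56.9 ± 3.06 at 27 h and 156 ± 19.3 in dry seed (SD, n = 3 each), a log2 change of -1.43 ± 0.30 SE (limma adjusted p = 0.000545). With equal library sums it was -0.73 and not called (limma adjusted p = 0.123). Dry seed was higher than early desiccation, with 77.9 ± 49.3, by a log2 change of 1.16 ± 0.30 SE (limma adjusted p = 0.0117). This call ended without early desiccation replicate 1 or 2 (log2 changes 1.01 and 0.83, limma adjusted p = 0.0673 and 0.0979) or dry seed replicate 2 (1.06, limma adjusted p = 0.0515), and with the compared stages alone (limma adjusted p = 0.0763). Mid desiccation, with 107 ± 5.09, was called higher than early desiccation once early desiccation replicate 3 was left out (log2 change 1.10, limma adjusted p = 0.0103), and not with it (0.62 ± 0.30 SE, limma adjusted p = 0.624). No neighbouring pair in its order of stage means (dry seed, 3 h, late desiccation, mid desiccation, 16 h, early desiccation, 27 h) differed by the test, and all 6 pairs overlapped.

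**Figure D3:**
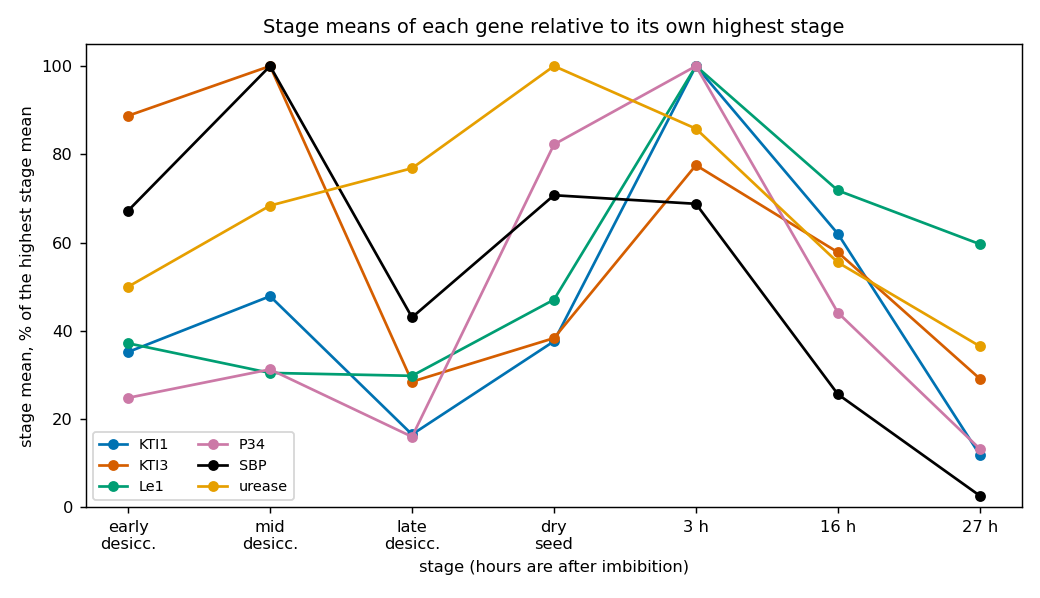
Stage mean of each gene as a percentage of its own highest stage mean (vertical axis, n = 3 replicates per point) along the 7 stages. P34 stands at 82.2% of its highest mean in dry seed and SBP at 2.61% at 27 h, while Le1 keeps 59.6% at 27 h.

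Between mid and early desiccation 0 of 6 were called by limma, beside 0.0494% of all genes, and the lowest unadjusted p among members was 0.0538, for urease. In late against mid desiccation 2 of 6 fell, where 0.627% of all genes were called and 0.511% fell, and the median log2 change was -1.07 over the members and -0.11 over all genes. In dry seed against late desiccation 1 of 6 rose, where 4.04% of all genes were called, 1.49% higher and 2.55% lower, with medians of 0.76 for the members and -0.37 for all genes. All 6 members had a positive log2 change at this step, from 0.28 for KTI3 to 2.31 for P34, though that of KTI3 was negative in 1 of 31 alternatives (-0.14). TMM scaling moved the median of all genes by 0.33 at this step, and then 3 of 6 members were called higher in dry seed (KTI1, P34 and SBP). With edgeR 4 of 6 were called (KTI1, Le1, P34 and SBP), and 4 of 6 in late against mid desiccation (KTI1, KTI3, P34 and SBP). Over all genes, TMM called 3129 and edgeR 3183 in dry seed against late desiccation. In late against mid desiccation edgeR called 1005 genes.

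In 3 h against dry seed 1 of 6 members rose, where 2.09% of all genes rose and 1.31% fell, and the medians were 0.72 for the members and 0.24 for all genes. In 16 h against 3 h 2 of 6 fell (P34 and SBP), where 7.04% of all genes were called, 4.77% higher and 2.27% lower, with medians of -0.69 for the members and -0.33 for all genes. In 27 h against 16 h 3 of 6 fell (KTI1, P34 and SBP), where 14.8% of all genes were called, 6.45% higher and 8.35% lower, with medians of -1.39 and 0.41. Over the whole of imbibition, 27 h against dry seed, 4 of 6 fell (KTI1, P34, SBP and urease), where 32.2% of all genes were called, 19.1% higher and 13.1% lower, with medians of -1.50 and 0.12. With equal library sums P34 and SBP fell and Le1 rose, and KTI1 and urease were no longer called. In dry seed against early desiccation P34 and urease rose and KTI3 fell, where 7.61% of all genes were called, 2.67% higher and 4.94% lower. There the medians were 0.22 for the members and 0.18 for all genes.

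**Figure D4:**
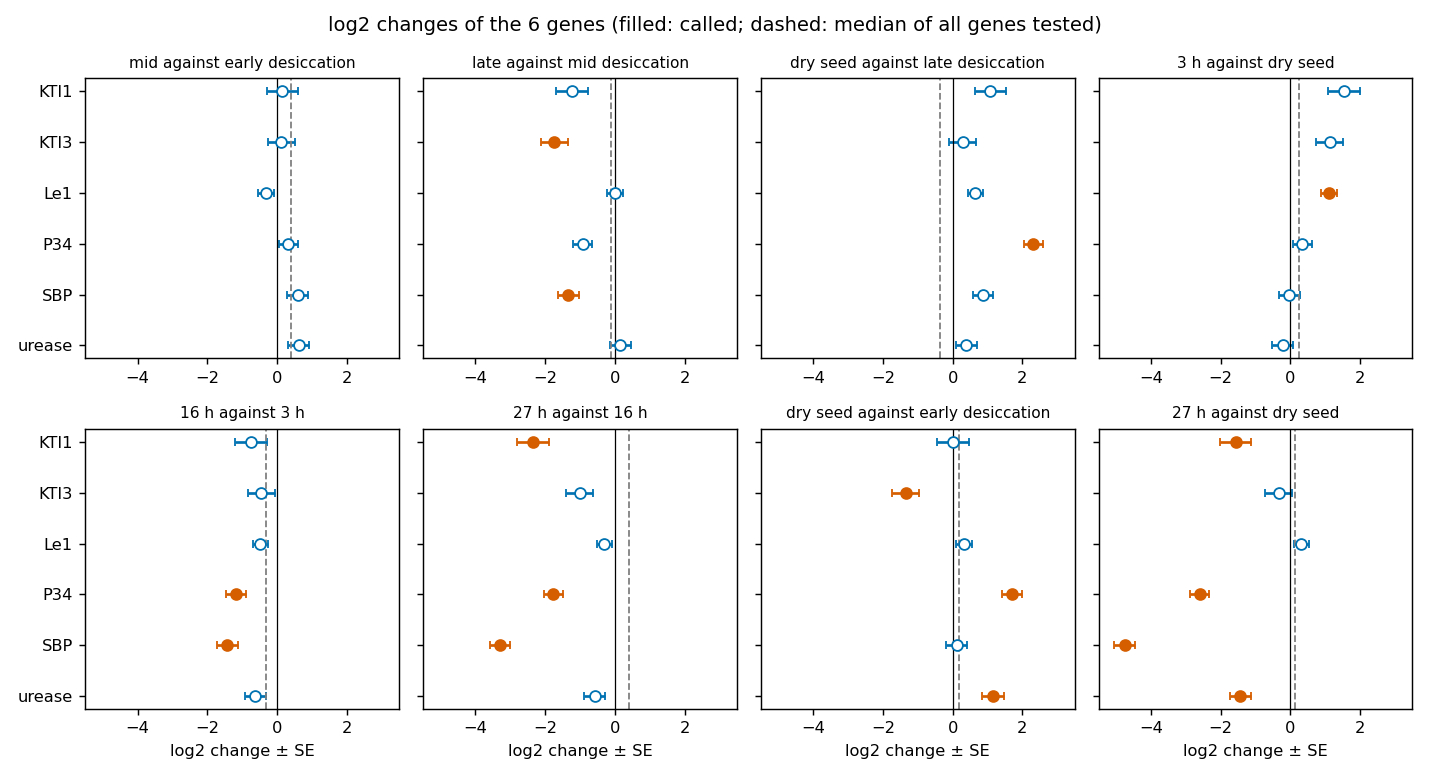
log2 change ± SE of each gene (rows) in 8 comparisons of a later with an earlier stage (panels); filled points were called, open points were not, and the dashed line is the median of the 46537 genes tested. In 27 h against 16 h all 6 points lie left of 0, while the median of all genes is 0.41.

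The remaining stage pairs place each imbibed stage beside the drying stages, and were fitted with all replicates, without alternatives. For these pairs every share of all genes counts calls in either direction together, higher and lower. Equal library sums were not tried for them, and sums of normalized counts were lower at 16 h and 27 h than in every replicate of the other stages. At 3 h KTI1, Le1 and P34 were higher than in early desiccation (3 of 6, beside 3.52% of all genes), with log2 changes of 1.54 ± 0.45, 1.43 ± 0.22 and 2.05 ± 0.28 SE. KTI1 was close to the threshold there (limma adjusted p = 0.0497). The same 3 members were higher at 3 h than in late desiccation, beside 1.35% of all genes, with log2 changes of 2.61, 1.75 and 2.65. Against mid desiccation Le1 and P34 were higher at 3 h, beside 3.75% of all genes, and KTI1 was not called (limma adjusted p = 0.0741).

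At 16 h KTI1, Le1 and P34 were still higher than in late desiccation (3 of 6, beside 8.68% of all genes), by log2 changes of 1.86, 1.27 and 1.47. SBP was lower at 16 h than in early desiccation (log2 change -1.35 ± 0.30 SE, beside 11.4% of all genes), and lower than in dry seed (-1.46 ± 0.30 SE, beside 14.6%). At 16 h against mid desiccation SBP was lower (-1.93 ± 0.30 SE) and Le1 higher (1.27 ± 0.22 SE), beside 9.96% of all genes. Lectin and sucrose-binding protein transcripts stood on opposite sides of their mid desiccation level.

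At 27 h KTI1, KTI3 and SBP were lower than in early desiccation (3 of 6, beside 27.5% of all genes called in either direction). These 3 and P34 were lower than in mid desiccation (4 of 6, beside 24.2%). As a mean share of all normalized counts, KTI1 held 0.00902% at 27 h, 0.0166% in early and 0.0206% in mid desiccation. For KTI3 these shares were 0.00584%, 0.0106% and 0.0114%, and for SBP 0.000996%, 0.0150% and 0.0215%. P34 held 0.0141% at 27 h and 0.0188% in mid desiccation. Replicate shares of KTI1, KTI3 and P34 at 27 h overlapped those in mid desiccation. Those of KTI1, KTI3 and SBP did not overlap those in early desiccation. Against late desiccation SBP (log2 change -3.89 ± 0.30 SE) and urease (-1.05 ± 0.30 SE) were lower, beside 25.8% of all genes. The inhibitor genes and P34 were not called there, and their replicates overlapped. Le1 went the other way, higher at 27 h than in early, mid and late desiccation, without overlapping replicates. Its log2 changes were 0.64, 0.96 and 0.96 (± 0.22 SE each). They were under 2-fold and so not called (limma adjusted p = 0.0272, 0.00148 and 0.00146). Its mean share was 0.0154% at 27 h and 0.00581%, 0.00445% and 0.00492% in those stages. Against 3 h all members but Le1 were lower (5 of 6, beside 27.4%), and Le1 changed by -0.79 ± 0.22 SE, under 2-fold (limma adjusted p = 0.00708). As a mean share of all normalized counts, urease held 0.000496% at 27 h, 0.000664% in late desiccation and 0.000730% at 3 h. Le1 held 0.0154% at 27 h and 0.0160% at 3 h. SBP held 0.000996% at 27 h, 0.00974% in late desiccation and 0.0163% at 3 h. The shares of KTI1, KTI3 and P34 were also lower at 27 h than at 3 h. Before imbibition, KTI3 was lower (-1.46 ± 0.39 SE, with overlapping replicates) and P34 higher (1.39 ± 0.28 SE) in dry seed than in mid desiccation, beside 7.95% of all genes. In late against early desiccation limma called 0 of 6, beside 0.623% of all genes, and KTI3 came closest with -1.63 ± 0.39 SE (limma adjusted p = 0.0513).

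Several members stood apart in the same replicate. In dry seed replicate 1, 3 of 6 members (KTI1, KTI3 and P34) were at least 1.5-fold above both other replicates, as were 4.25% of 19161 genes with a stage mean of at least 50. In early desiccation replicate 3, KTI1, P34 and urease were at least 1.5-fold above both others, as were 14.5% of genes. SBP was at least 1.5-fold below both others there, as were 19.2% of genes. In mid desiccation replicate 3, KTI1 and P34 were that far above both others, as were 3.65% of genes. In mid desiccation replicate 2, KTI1 and KTI3 were that far below both others, as were 3.7% of genes, and in 16 h replicate 1 KTI1 and KTI3 were above both others, as were 0.646%. Between sequencing runs of 1 replicate, the median ratio of the highest to the lowest run was 1.05 for P34, 1.06 for KTI1 and SBP, 1.09 for KTI3, 1.10 for urease and 1.12 for Le1. The largest run ratio was 1.96 for urease, at 27 h in replicate 3, and its next was 1.95, in early desiccation replicate 2. For the other members no run ratio exceeded 1.43, the highest for Le1. The part of library quality in this scatter was not tested.

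Over the 21 replicates, Pearson's r of log2(value + 1) between pairs of members ranged from -0.234 (Le1 and SBP) to 0.846 (KTI1 and P34), with a median of 0.528 over 15 pairs. KTI1 and KTI3 stood at 0.684. These values describe courses over 7 shared stages and shared libraries and were not tested. Among 16762 other genes with a mean of at least 100 normalized counts, the courses most like SBP were those of Glyma06g36150 and Glyma12g27340, both with r = 0.985, and 1406 genes (8.39%) exceeded 0.9. The courses most like P34 were Glyma15g03566 (r = 0.923) and Glyma18g51230 (r = 0.915), and 10 genes exceeded 0.9. KTI1 was most like Glyma08g05220 (r = 0.919) and Glyma08g14900 (r = 0.912), with 2 genes over 0.9. Urease was most like Glyma13g36331 (r = 0.905) and Glyma06g19077 (r = 0.891), with 1 over 0.9. KTI3 (Glyma10g01750, r = 0.855, and Glyma09g32540, r = 0.851) and Le1 (Glyma03g40980, r = 0.863, and Glyma16g04440, r = 0.846) had 0 genes over 0.9.

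The 2 rows on each side of each member in ID order, 24 in all, were examined as its surroundings. Of these 7 varied across the stages, where 37.5% of all genes did. In 27 h against dry seed 3 rose and 2 fell, where 19.1% of all genes rose and 13.1% fell, so the rows beside the members were not called more often than genes at large. The row just before KTI3, Glyma08g45520, had 1649.7, 1442 and 1442 normalized counts in replicates 1, 2 and 3 at 27 h, against 126, 78.3 and 38.6 in the dry seed replicates. The 2 groups did not overlap. It averaged 1511 ± 120 at 27 h and 81.1 ± 44.0 in dry seed (SD, n = 3 each), a log2 change of 4.36 ± 0.47 SE (limma adjusted p = 1.91e-07). The row before that, Glyma08g45510, also rose (log2 change 3.25 ± 0.58 SE, limma adjusted p = 9.92e-05). KTI3 itself was not called in this comparison. In the RefSeq table the protein-coding gene just before KTI3 on chromosome 8 is another Kunitz-named gene, KTI-1, but nothing in the files ties it to either row. Reads of near-identical family members may be split between rows, so single Kunitz values are uncertain to that extent.

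**Figure D5:**
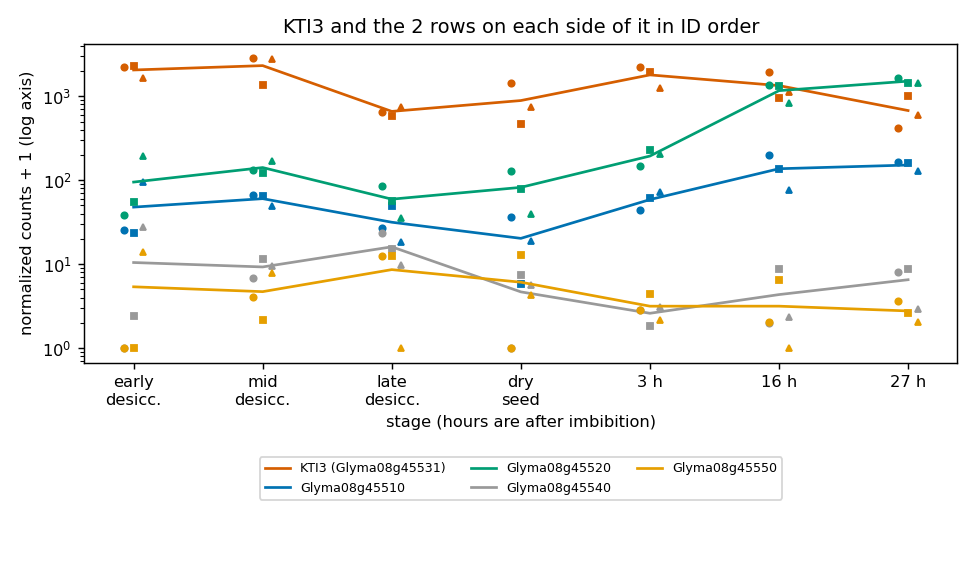
Normalized counts + 1 (log axis) of KTI3 and the 2 rows before and after it in ID order at 7 stages; lines join stage means, points are replicates, and levels of different rows are not per length. Glyma08g45520 averages 1511 at 27 h and 81.1 in dry seed, while KTI3 averages 674 at 27 h and 887 in dry seed.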

How the data were processed

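Whole seed (embryo) RNA was made into Illumina TruSeq libraries, per the labels' protocols. The submitters' processing notes name Trimmomatic 0.38 and HISAT2. Counting tool, annotation, genome build and strand setting were not given in the sources used here, so overlapping, antisense and near-identical genes cannot be told apart. The deposited values are a signal per gene and library, read counts that the authors divided by 1 size factor per library. In each library 100% of values were whole multiples of 1 read (tolerance 0.001 reads), so whole reads were recovered. Libraries held 2.47 M to 80.08 M reads, and 1 read was worth 0.173 to 8.95 normalized counts depending on the library. Of 46 labelled samples 45 matched a column, and 1 column that matched no label was not used. The label without a column is run 2 of late desiccation replicate 3, which therefore rests on 1 run. The unused column may hold that run, but its name does not match the label. In late desiccation replicates 1 and 2, run 1 held 3.09 M and 3.26 M reads, and run 2 held 47.29 M and 46.47 M. The low depth of replicate 3 here, 2.53 M reads, is thus that of a run 1 alone.

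Runs were averaged within a replicate. The 46537 genes that reached 10 normalized counts in 3 or more of the 21 replicates were fitted on log2(value + 1) with limma 3.58.1 in R 4.3.3 (7 stage means in 1 fit, trend, robust), and p-values were adjusted within each comparison. Every adjusted p in the text is from limma unless edgeR is named. The scale understates changes of low genes. The labels number biological replicates without naming separate plants, so p-values measure the spread between these samples. edgeR 4.0.16 (quasi-likelihood, TMM) on recovered reads called 3183 genes in dry seed against late desiccation, where limma called 1879. The procedure was tested on simulated data. Figures used Python 3.11.15 with matplotlib 3.10.9. The alternatives were a pseudocount of 5, no filter, TMM, run 1 alone, a replicate block, edgeR, the compared stages alone, no fold threshold, leaving out replicates and, added after seeing the data, equal library sums.

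The members, the neighbouring rows and the likeness rule were chosen with earlier results of these data known. Named genes were the 6 members, the 2 rows on each side of each in ID order (those that rose beside KTI3 are named) and the 2 genes with the highest Pearson r. None of the table's IDs matched the RefSeq table of 59048 genes (0 matched).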

Additional observations from a re-analysis of the deposited data

How the results depend on the processing

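Over 31 alternatives, 0 log2 changes of a called member turned round. Of 1668 recomputed values 31 lost a call and 28 gained one. Only values called with all replicates could lose a call, and these were a part of the 1668. Dropping the fold threshold cannot end a call. Leaving out a replicate of a stage outside the comparison leaves the log2 change as it was. The calls of P34 in dry seed against late and early desiccation, of SBP in 16 h against 3 h, and of KTI1, P34 and SBP in 27 h against 16 h held in all, as did P34 and SBP in 27 h against dry seed. Member counts are out of 6. In late against mid desiccation 2 were called in the main fit, 1 with run 1 alone, 0 with the compared stages alone and 4 with edgeR. Over all genes tested, these fits called 292, 361, 0 and 1005. The loss with the compared stages alone is thus not particular to the members. In dry seed against late desiccation the count of 1 became 3 with TMM and 4 with edgeR, and 2 without early and late desiccation replicate 3. In 3 h against dry seed the count of 1 became 2 with a pseudocount of 5, with TMM, with the compared stages alone and without that pair. In dry seed against early desiccation the count of 3 became 1 with the compared stages alone. In mid against early desiccation 0 became 1 without the pair, and in 16 h against 3 h 2 became 1 with equal library sums. Without 1 replicate at a time these counts ranged from 0 to 1 (mid against early desiccation), 0 to 2 (late against mid), 1 to 2 (dry seed against late), 0 to 3 (3 h against dry seed), 1 to 3 (dry seed against early desiccation), 3 to 4 (27 h against 16 h) and 3 to 4 (27 h against dry seed). Counts over all genes moved more: without early desiccation replicate 3, limma called 9027 genes in mid against early desiccation, where it called 23 with all replicates. In late against mid desiccation it called 292 genes, 11 without mid desiccation replicate 2 and 996 with TMM, which also brought in P34 (log2 change -1.21, adjusted p = 0.0110). In dry seed against late desiccation it called 1879 genes, and 3129 with TMM or 3183 with edgeR. The causes were not tested.

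Replicate numbers showed no pairing of samples on average. Over 11967 genes, deviations from the stage means correlated on average at 0.0103 for 63 pairs of the same number. For 126 pairs of different numbers the average was -0.00664. Single pairs ranged from -0.331 to 0.584 for the same number and from -0.586 to 0.596 for different numbers. The averages cannot show a pairing between some stages only. With the number as a block, 1 member (KTI3) was called in late against mid desiccation, without SBP (adjusted p = 0.0506), and 2 (KTI1 and Le1) in 3 h against dry seed. The 2.53 M reads of late desiccation replicate 3 limit urease most, at 12 reads.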
